A study of Mus musculus with 7 samples.

Results

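The genes described here are 10 mRNAs whose protein products gate or subdivide mouse LSK cells, the lineage-negative, Sca1+, cKit+ fraction of bone marrow (BM) that holds hematopoietic stem cells (HSCs) and their earliest progeny. They were taken from a table of 48440 genes by gene symbol, namely Ly6a and Kit of the gate itself, Cd34, the SLAM receptors Slamf1 and Cd48, and Procr, Tek, Fgd5, Esam and Robo4, which are enriched in HSCs. All 10 were found in the table and all 10 passed the filter on low values. The RNA came from LSK cells sorted from BM chimeras, C57BL/6 recipients that were lethally irradiated with 9.5 Gy and grafted with BM from either wild-type donors or donors with a constitutive, endonuclease-made deletion of PROSER1, a partner of the TET DNA demethylases. Cells were collected on day 77 after transplantation with no further treatment, and the 4 wild-type and 3 PROSER1 KO libraries were described by the submitters as biological replicates. The age and sex of the animals, and how many animals stand behind a library, were not given in the sources used here, so the p-values measure the spread between these samples. The donors carried the deletion in every cell, while cells of the recipient that survived irradiation would be wild-type in both groups.

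The LSK gate rests on a pair of surface proteins. Sca1, encoded by Ly6a, is a small protein anchored to the membrane by a lipid, and cKit is the receptor tyrosine kinase for stem cell factor, on which HSCs depend for survival. Within the gate, long-term HSCs are recognised as CD150+ (the Slamf1 product) and CD48-, and most multipotent and restricted progenitors gain CD48. EPCR (Procr), TIE2 (Tek), ESAM, ROBO4 and FGD5 are shared by HSCs and endothelial cells, the lineage from which HSCs arise in the embryo. The comparison asks whether the mRNAs of these markers differed between wild-type and PROSER1 KO LSK cells. In bulk RNA, fewer cells of a type and less RNA per cell cannot be told apart.

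Libraries held between 33143619 and 45140743 read pairs assigned to genes. Values are normalized counts, meaning read pairs per gene divided by one size factor per library, and 3 read pairs correspond to 2.54 to 3.48 normalized counts. Every marker lay far above that floor, the lowest single value being 290 for Slamf1. Proser1 mRNA was not lower in the deleted group, with 2019, 2153, 2103 and 2077 normalized counts in the wild-type libraries and 2464, 2359 and 2338 in those labelled PROSER1 KO (log2 fold change 0.19, limma adjusted p = 0.204). The mRNA therefore does not check the genotype, and every direction below rests on the labels.

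The markers of the gate were present at high levels in all 7 libraries. Scaled by exon length, so that genes can be set side by side, Cd34 had the highest level, between 4070 and 5060 normalized counts per kb, and exceeded 97.7% of the 16195 tested genes with an exon length. Ly6a followed at 3290 to 5660 per kb and Kit at 2870 to 3630 per kb, and neither of these neighbours in the order was separated from the one above it. Cd48, at 2390 to 2700 per kb, was lower than Kit in every library and exceeded 95.9% of genes. The HSC-enriched markers were lower. Procr lay at 563 to 863 per kb and Esam at 531 to 616 per kb, with overlapping ranges, whereas Robo4 (234 to 283), Tek (197 to 247) and Fgd5 (130 to 170) lay near the median gene, which had 209 normalized counts per kb. Robo4 and Tek overlapped in range, and Fgd5 was below both. Slamf1 was the lowest marker at 47.1 to 77.6 per kb, exceeded only 29.9% of genes, and its range did not touch that of Fgd5.

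**Figure D1:**
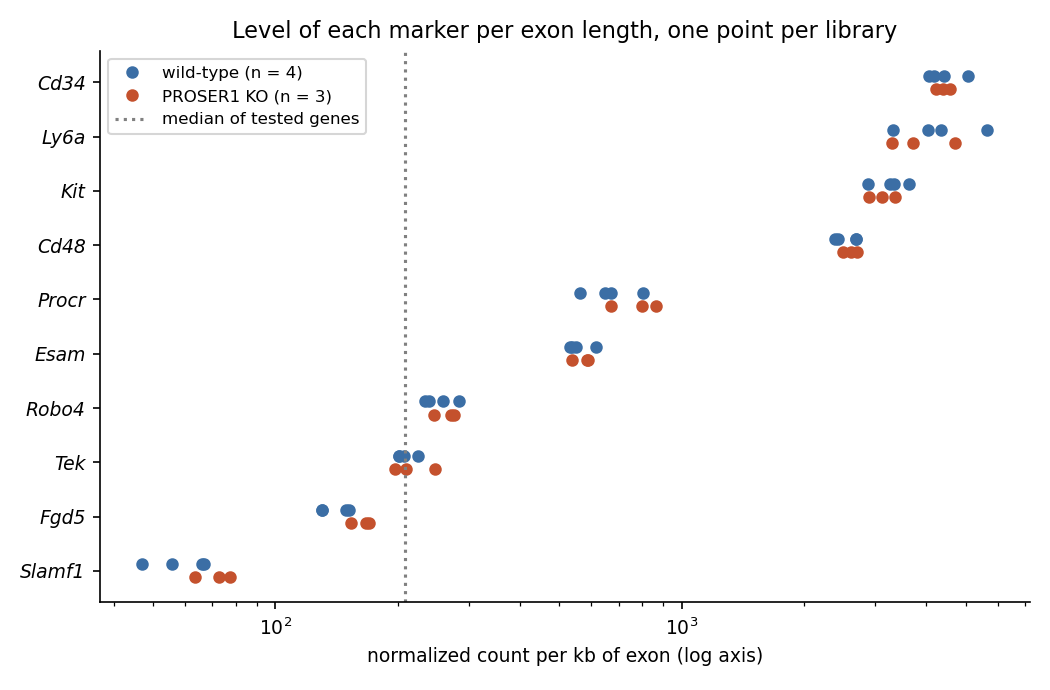
Normalized count per kb of exon on a log axis for each marker gene, with 1 point per library (blue, 4 wild-type; red, 3 PROSER1 KO) and the median of tested genes as a dotted line at 209. Cd34, Ly6a, Kit and Cd48 lie at 2390 or above, and Slamf1 lies lowest at 47.1 to 77.6.

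None of the 10 markers passed the test between the groups. The test was limma on log2(normalized count + 1), run over the 16251 genes whose mean reached 10, with Benjamini-Hochberg adjustment over all of them, and a gene was called at an adjusted p under 0.05 with a fold change above 1.5. It called 0 of 10 markers, against 42 of all 16251 genes (0.258%). DESeq2 and edgeR, run on read pairs recovered from the values, also called 0 of 10 markers, where they called 0.873% and 0.253% of the genes they tested. At an unadjusted p under 0.05 stood 1 of 10 markers, Fgd5, against 9.73% of all genes. The groups did not overlap for 1 of 10 markers, again Fgd5, against 10% of all genes (5.17% with PROSER1 KO higher, as for Fgd5). With 1 marker in each count, these shares cannot be told apart from those of all genes. The log2 fold change was above 0 for 7 markers and below 0 for 3, with a median of 0.04, where all genes had a median of 0.001. The 95% interval of the fold change included no change for 9 markers and lay within 1.5-fold in both directions for 9, the exception to the latter being Slamf1. A change of that size or more is therefore outside the interval for each marker but Slamf1, while smaller differences were not resolved.

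**Figure D2:**
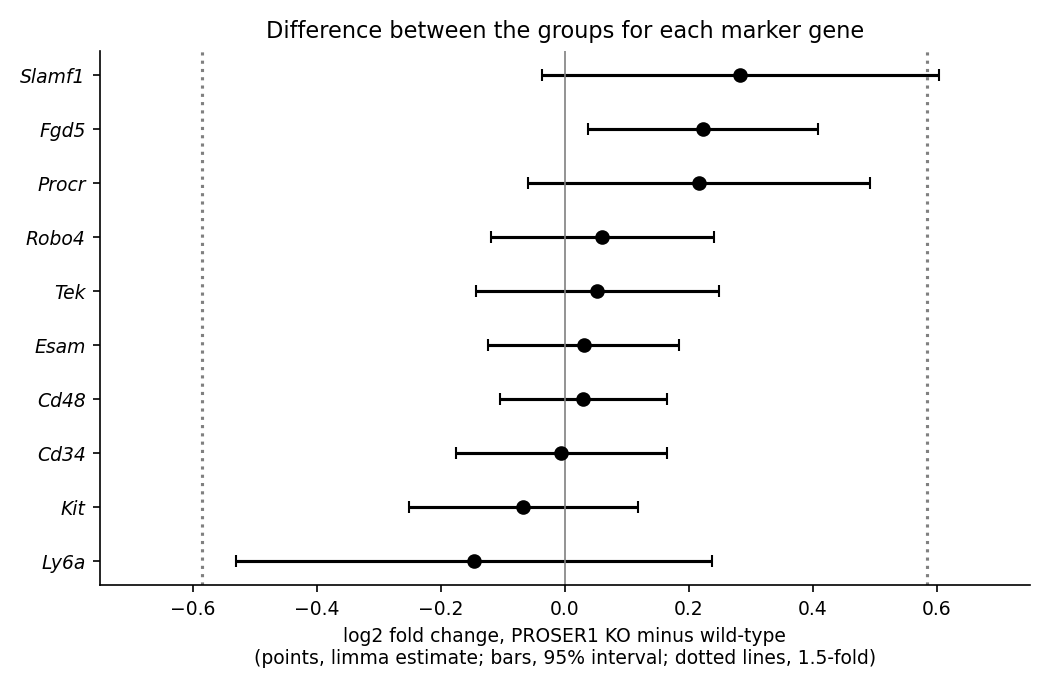
Log2 fold change of each marker gene, PROSER1 KO minus wild-type, as limma estimates (points) with 95% intervals (bars) and dotted lines at a 1.5-fold change. Intervals for 9 of 10 genes cross 0, that of Fgd5 runs from 0.04 to 0.41, and only that of Slamf1 passes a dotted line.

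Ly6a (ENSMUSG00000075602, chr15:74994877-74998031 on the minus strand, GRCm38), the Sca1 gene, varied more between libraries than any other marker. Replicates 1 to 4 of the wild-type held 5256, 4886, 4006 and 6822 normalized counts of Ly6a, and replicates 1 to 3 of the PROSER1 KO held 4471, 3961 and 5682. Wild-type replicate 4 was the highest library and PROSER1 KO replicate 2 the lowest, with wild-type replicate 3 close to it, so the groups overlapped. The wild-type mean was 5243 ± 1177 (SD, n = 4) and that of PROSER1 KO 4705 ± 884 (SD, n = 3), which makes the log2 fold change -0.15 (95% interval -0.53 to 0.24, limma adjusted p = 0.835), and leaving out single libraries moved it from -0.29 without PROSER1 KO replicate 3 to -0.01 without wild-type replicate 4. Within groups its log2 values had an SD of 0.30, whereas the 1000 genes nearest to it in level had a median SD of 0.07.

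Plasma cell genes varied across the libraries in nearly the same order as Ly6a. Sca1 is also carried by cells outside the stem cell compartment, plasma cells among them, and a list of 9 plasma cell genes, led by the antibody joining chain gene Jchain, summed to 297100, 245100, 172600 and 433200 normalized counts in the wild-type libraries and 224200, 201500 and 301400 in the PROSER1 KO libraries. Both Ly6a and this sum were highest in wild-type replicate 4, then in PROSER1 KO replicate 3, wild-type replicates 1 and 2 and PROSER1 KO replicate 1, and they differed only in which of the remaining pair was lowest. Jchain alone ranged from 151610 to 384350 normalized counts, 2.54 times from lowest to highest, compared with 1.72 times for Ly6a. The list's own comparison gave 0 of 9 genes called, with all 9 log2 fold changes below 0 and a median of -0.29. Its gene with the lowest p, Derl3, an endoplasmic reticulum protein, had an adjusted p of 0.621. The part of plasma cell RNA in the Ly6a spread was not tested.

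The 3 genes whose pattern over the 7 libraries was most like that of Ly6a, by the root mean square difference of log2 values centred on each gene's mean, were A530040E14Rik (0.068), Edem1 (0.073) and Creb3l2 (0.074). Edem1 acts in the removal of misfolded proteins from the endoplasmic reticulum, and Creb3l2 is a transcription factor of secretory cells. Edem1 stood at 7810, 6760, 5070 and 10200 normalized counts in the 4 wild-type libraries and at 6280, 5560 and 8100 in the 3 libraries labelled PROSER1 KO. Creb3l2 stood at 3460, 3290, 2910 and 5090 in the 4 wild-type libraries and at 3160, 2980 and 3780 in the 3 libraries labelled PROSER1 KO. Both were highest in wild-type replicate 4 and lowest in wild-type replicate 3, and their groups overlapped. Interferon-stimulated genes, among which Ly6a is usually counted, were read as a sum. The summed level of 12 such genes ran 1.17 times from lowest to highest, compared with 1.72 times for Ly6a. A sum can vary less than its single genes, which differed in range, such as Ifit3 at 91.6 to 170 and Ifi44 at 1384 to 1589. The sum was lowest, at 17470, in wild-type replicate 4 where Ly6a was highest, and highest, at 20370, in PROSER1 KO replicate 1. The part of interferon in the Ly6a spread was not tested.

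**Figure D3:**
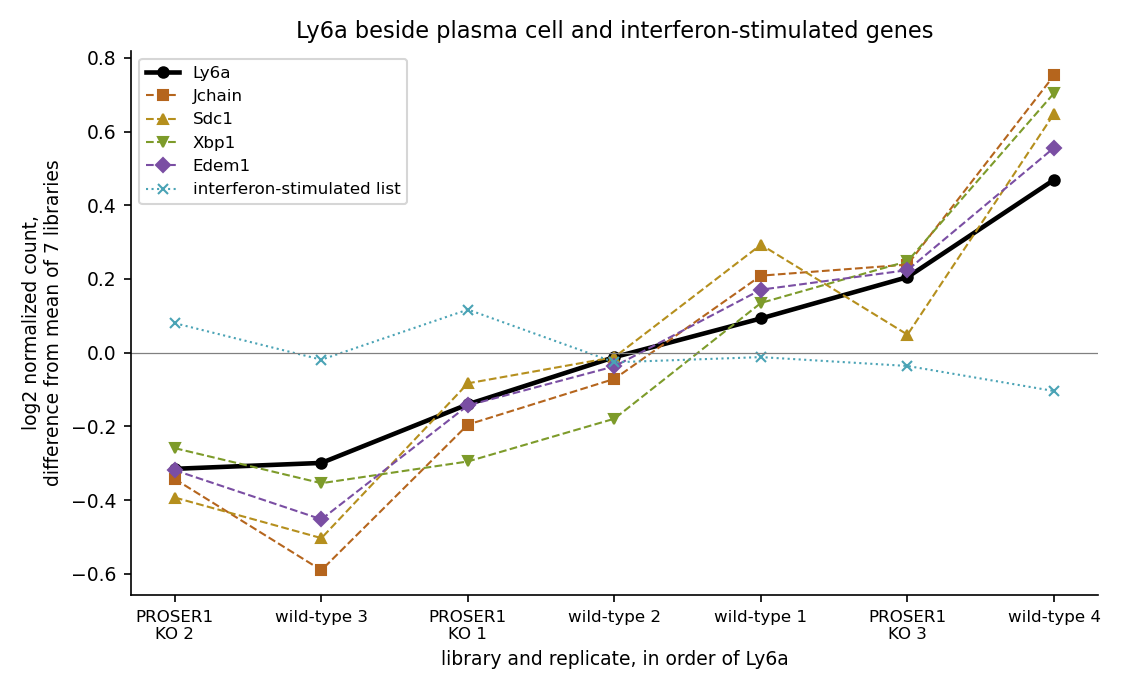
Log2 normalized count of Ly6a, of the plasma cell genes Jchain, Sdc1 and Xbp1, of Edem1 and of the summed interferon-stimulated list, each as the difference from its mean over the 7 libraries, with the libraries in order of Ly6a. Ly6a runs from -0.32 to 0.47 and Jchain from -0.59 to 0.75 with both highest in wild-type replicate 4, where the interferon-stimulated list is lowest at -0.10.

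Among the neighbours of Ly6a in its gene family, members that were high in wild-type replicate 4 included Ly6d, with 3880 normalized counts there and 1532 to 2718 in the other libraries, and Ly6k, with 457 there and 101 to 250 elsewhere. Not all members did so. Ly6c2 was highest in wild-type replicate 1, at 1460 against 1295 in wild-type replicate 4, and the low Ly6c1 was lowest in wild-type replicate 4, at 8.11. Ly6e, the most abundant member, lay between 27863 and 36178. Of 16 family genes, 10 were tested and 0 were called, with 3 log2 fold changes above 0, 7 below and a median of -0.22. Lynx1, a modulator of acetylcholine receptors, had the lowest p and ranged from 169 to 235 in wild-type and from 152 to 159 in PROSER1 KO libraries (log2 fold change -0.37, limma adjusted p = 0.455). Reads of closely related Ly6 genes may be divided between copies in ways the count table does not show.

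Kit (ENSMUSG00000005672, chr5:75574916-75656722 on the plus strand), the receptor that completes the gate, stood at 25535, 29747, 32357 and 29093 normalized counts in the 4 wild-type libraries and at 25761, 29960 and 27723 in the 3 libraries labelled PROSER1 KO. The lowest and the highest library were both wild-type, replicates 1 and 3, and the PROSER1 KO libraries lay between them. The log2 fold change was -0.07 (interval -0.25 to 0.12, limma adjusted p = 0.847), and it ran from -0.13 without wild-type replicate 1 to -0.013 without PROSER1 KO replicate 1. Of 20 genes of KIT signalling, all of them tested, 0 were called, 12 log2 fold changes were above 0 and 8 below, and the median was 0.02. Gab2, a scaffold that links receptor kinases to PI3 kinase, had the lowest p, with 1521 to 1645 normalized counts in wild-type and 1619 to 1818 in PROSER1 KO libraries (log2 fold change 0.13, limma adjusted p = 0.524). Kitl, which encodes the ligand and is made mainly by the niche, was near the floor at 4.51 to 35.5.

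Cd34 (ENSMUSG00000016494, chr1:194938819-194961279 on the plus strand) encodes a sialomucin that is low on adult mouse long-term HSCs and present on many other LSK cells. It stood at 32226, 30490, 36918 and 29694 normalized counts in the 4 wild-type libraries and at 30791, 33341 and 32182 in the 3 libraries labelled PROSER1 KO. Wild-type replicate 3 stood above the other libraries, which lay close together in both groups. Mean levels came to 32332 ± 3235 (SD, n = 4) and 32105 ± 1277 (SD, n = 3), and the log2 fold change was -0.01 (interval -0.18 to 0.16, limma adjusted p = 0.989). Its sign was not fixed, since it turned to 0.06 without wild-type replicate 3 and to 0.02 without PROSER1 KO replicate 1. The antisense gene Gm16897 shares 148 exon bases with Cd34 and had only 8.11 to 20.2 normalized counts. Whether counting used the strand was not stated in the sources used here.

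Slamf1 (ENSMUSG00000015316, chr1:171767127-171801184) and Cd48 (ENSMUSG00000015355, chr1:171682009-171705258), both on the plus strand, stand 61.9 kb apart in the cluster of SLAM receptor genes, with no protein-coding gene between them. Slamf1, which encodes CD150, stood at 406, 412, 290 and 343 normalized counts in the 4 wild-type libraries and at 478, 448 and 390 in the 3 libraries labelled PROSER1 KO. PROSER1 KO replicates 1 and 2 were above every wild-type library, while PROSER1 KO replicate 3 was below wild-type replicates 1 and 2, so the groups overlapped. The means of 363 ± 57.7 (SD, n = 4) and 439 ± 44.8 (SD, n = 3) gave the largest log2 fold change among the markers, 0.28 (interval -0.04 to 0.60, or 0.97- to 1.52-fold, limma adjusted p = 0.559). It remained positive when any single library was left out, at 0.18 without wild-type replicate 3 to 0.37 without PROSER1 KO replicate 3.

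Cd48 was the most even marker. It stood at 3204, 2895, 3187 and 2847 normalized counts in the 4 wild-type libraries and at 2965, 3104 and 3210 in the 3 libraries labelled PROSER1 KO. The highest library exceeded the lowest by a factor of 1.13, and the PROSER1 KO values began inside the wild-type range and ended just above it, in replicate 3. Its log2 fold change was 0.03 (interval -0.11 to 0.16, limma adjusted p = 0.920) and ran from -0.00044 without wild-type replicate 4 to 0.059 without PROSER1 KO replicate 1.

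Markers were also set against Cd48 within each library, where the size factor cancels. Slamf1 counts were 12.7, 14.2, 9.09 and 12.1% of Cd48 counts in the wild-type libraries and 16.1, 14.4 and 12.1% in the PROSER1 KO libraries. These ratios, and those of Procr below, are not scaled by exon length (6156 bases for Slamf1, 1189 for Cd48, 2031 for Procr). They compare libraries and do not give the amount of one mRNA relative to the other. Wild-type replicate 3 had the lowest ratio, and a wild-type and a PROSER1 KO library shared the value of 12.1%. Mean ratios came to 12 ± 2.15% (SD, n = 4) and 14.2 ± 1.99% (SD, n = 3), with a difference of 0.25 on the log2 scale that is given without a test and is about as large as the within-group SDs of 0.27 and 0.21. For Procr against Cd48 the wild-type ratios were 35.7, 56.4, 42.8 and 46.2% and the PROSER1 KO ratios 46.0, 52.3 and 54.6%. Wild-type replicate 2 had the highest value of all 7, and the log2 difference of 0.19 was smaller than the wild-type SD of 0.27 and larger than the PROSER1 KO SD of 0.13.

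**Figure D4:**
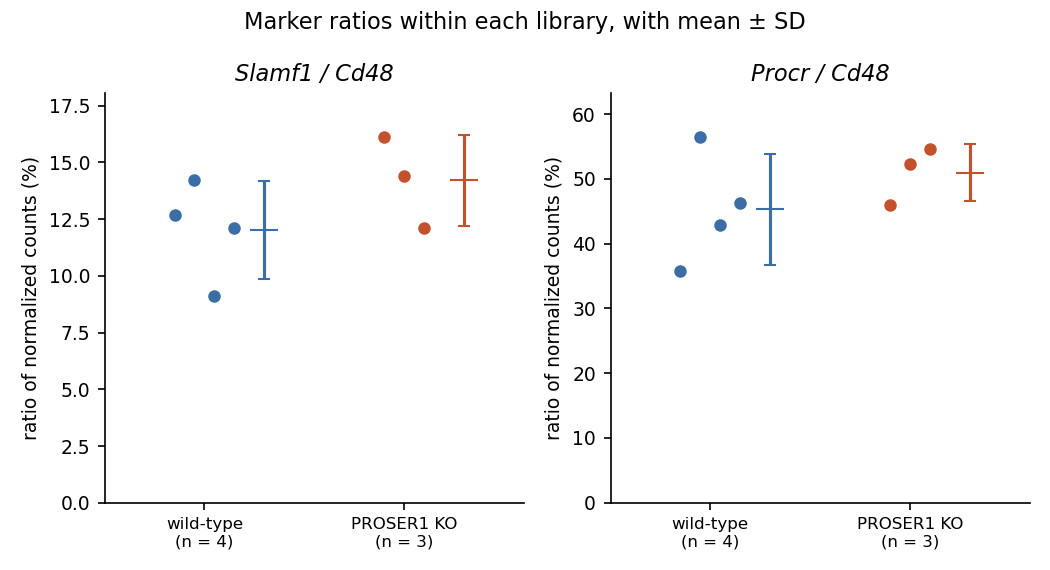
Slamf1 and Procr normalized counts as a percentage of Cd48 in the same library, with points for libraries and the mean ± SD for 4 wild-type and 3 PROSER1 KO libraries on axes that start at 0. The groups overlap in both panels, with means of 12 and 14.2% on the left and 45.3 and 51.0% on the right.

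Over the 9 genes of the SLAM family, all tested, 0 were called, with 6 log2 fold changes above 0, 3 below and a median of 0.10. Cd84, a self-ligand receptor of this family, had the lowest p, at 3341 to 3705 normalized counts in wild-type and 3600 to 3887 in PROSER1 KO libraries (log2 fold change 0.11, limma adjusted p = 0.564). Cd244a, the receptor that binds CD48, lay between 1863 and 2235 in wild-type and between 1984 and 2411 in PROSER1 KO libraries, and the groups overlapped. Slamf7, a receptor of plasma cells and other leukocytes, was highest in wild-type replicate 4 at 3391 and lowest at 1283 in wild-type replicate 3 and PROSER1 KO replicate 2, the same high and low libraries as for the plasma cell genes.

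Procr (ENSMUSG00000027611, chr2:155751117-155755471 on the plus strand), encoding the endothelial protein C receptor, stood at 1143, 1633, 1366 and 1315 normalized counts in the 4 wild-type libraries and at 1365, 1623 and 1753 in the 3 libraries labelled PROSER1 KO. PROSER1 KO replicate 3 was the highest library, but wild-type replicate 2 was second, and PROSER1 KO replicate 1 fell among the wild-type libraries. Group means came to 1364 ± 203 (SD, n = 4) and 1580 ± 198 (SD, n = 3), with a log2 fold change of 0.22 (interval -0.06 to 0.49, limma adjusted p = 0.607). Leaving out single libraries moved this from 0.14 without wild-type replicate 1 to 0.32 without PROSER1 KO replicate 1. Its within-group SD of 0.20 was larger than the median of 0.09 for genes of like level.

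Fgd5 (ENSMUSG00000034037, chr6:91978878-92076004 on the plus strand), which encodes an exchange factor for the GTPase CDC42 and serves as a reporter locus for HSCs, was the single marker whose groups were apart. It stood at 940, 957, 817 and 821 normalized counts in the 4 wild-type libraries and at 968, 1068 and 1053 in the 3 libraries labelled PROSER1 KO. The lowest PROSER1 KO library, replicate 1, lay just above the highest wild-type library, replicate 2, so the separation is narrow. Mean levels came to 884 ± 75.1 (SD, n = 4) and 1030 ± 53.9 (SD, n = 3), with a fold change of 1.17 (interval 1.03 to 1.33) that missed the test, with adjusted p values of 0.414 by limma, 0.407 by edgeR and 0.362 by DESeq2. The log2 fold change of 0.22 lay between 0.19 and 0.27 when single libraries were left out. Its binding partner gene Cdc42 differed little, at 14507 to 15967 in wild-type and 14567 to 16233 in PROSER1 KO libraries.

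Slamf1 and Fgd5 had the largest log2 fold changes of the markers, and the sequence before their start sites is shown for that reason. RefSeq promoter sequences matched 8 of the 10 markers, and Ly6a and Esam had no entry. The stretches run 5′ to 3′ on the plus strand of GRCm38 and stop before the first annotated exon base, 245 bases at chr1:171766882-171767126 for Slamf1 and 163 bases at chr6:91978715-91978877 for Fgd5. Capitals mark GAGGAA on either strand, a form of the site that proteins of the ETS family bind.
Slamf1: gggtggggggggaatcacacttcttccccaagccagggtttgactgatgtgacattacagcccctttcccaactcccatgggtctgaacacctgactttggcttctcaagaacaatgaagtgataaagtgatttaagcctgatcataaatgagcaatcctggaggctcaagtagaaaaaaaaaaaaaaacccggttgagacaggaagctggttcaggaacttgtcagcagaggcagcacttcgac
Fgd5: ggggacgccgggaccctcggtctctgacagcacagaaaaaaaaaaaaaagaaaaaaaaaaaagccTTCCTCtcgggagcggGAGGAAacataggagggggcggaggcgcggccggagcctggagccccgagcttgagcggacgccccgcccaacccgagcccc
The Fgd5 stretch holds 2 matches to GAGGAA, 1 on each strand, and the Slamf1 stretch holds none. Other forms of the ETS site were not searched, so Slamf1 may hold those. In the 250 bases before the start site, 3 of the 8 marker promoters had a GAGGAA match, compared with 23.1% of 27025 gene promoters. They were Kit, Fgd5 and Robo4. These 250 bases can include annotated exon bases, and the Robo4 match did not lie wholly within the 175 bases before the first of them. The other motifs were also searched on both strands. TGTGGT, bound by RUNX factors, was found in 1 of 8 marker promoters (Cd48, with 239 of its 250 bases in annotated exons) and 14.2% of all promoters. For the E-box CAGCTG this was 2 of 8 and 12.8%. The GATA motif AGATAA was found in 0 of 8 and 10.3%. The STAT motif TTCNNNGAA was likewise found in 0 of 8, and in 7.18% of all. The 5 motifs were chosen after the expression values had been seen, and a match describes the letters only.

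Tek (ENSMUSG00000006386, chr4:94739289-94874976 on the plus strand), the angiopoietin receptor, stood at 954, 1060, 954 and 977 normalized counts in the 4 wild-type libraries and at 990, 1162 and 927 in the 3 libraries labelled PROSER1 KO. PROSER1 KO libraries were both the highest and the lowest. The log2 fold change was 0.05 (interval -0.14 to 0.25, limma adjusted p = 0.898), and it ran from -0.04 without PROSER1 KO replicate 2 to 0.12 without PROSER1 KO replicate 3. Its ligand gene Angpt1 was abundant in both groups, at 15145 to 17738 in wild-type and 15503 to 18224 in PROSER1 KO libraries, and the related receptor gene Tie1 lay at 4985 to 6113 and 5590 to 6097.

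Esam (ENSMUSG00000001946, chr9:37528078-37538319) and Robo4 (ENSMUSG00000032125, chr9:37401897-37415115) lie 113.0 kb apart on the plus strand of one chromosome, and the protein-coding genes between them are Robo3 and Msantd2. Esam, a cell adhesion molecule, stood at 1541, 1767, 1523 and 1573 normalized counts in the 4 wild-type libraries and at 1540, 1685 and 1674 in the 3 libraries labelled PROSER1 KO. Wild-type replicate 2 was highest, PROSER1 KO replicates 2 and 3 came next, and the remaining libraries were close together. The log2 fold change was 0.03 (interval -0.12 to 0.18, limma adjusted p = 0.930), moving between 0.0069 without wild-type replicate 3 or PROSER1 KO replicate 2 and 0.078 without wild-type replicate 2. Robo4, a receptor of the roundabout family, stood at 1239, 1373, 1500 and 1267 normalized counts in the 4 wild-type libraries and at 1435, 1302 and 1462 in the 3 libraries labelled PROSER1 KO. Wild-type libraries were again both the lowest and the highest, and the log2 fold change was 0.06 (interval -0.12 to 0.24, limma adjusted p = 0.863), from 0.022 without wild-type replicate 1 to 0.11 without wild-type replicate 3.

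Robo3, the neighbour and relative of Robo4, differed more than any marker. It stood at 286, 318, 294 and 322 normalized counts in the 4 wild-type libraries and at 685, 416 and 438 in the 3 libraries labelled PROSER1 KO. All 3 PROSER1 KO libraries were above all 4 wild-type libraries, and PROSER1 KO replicate 1 stood well above the other two. The log2 fold change of 0.71 did not pass with limma (adjusted p = 0.171) or edgeR (adjusted p = 0.166) and passed with DESeq2 (adjusted p = 0.00148), and without PROSER1 KO replicate 1 it was 0.49 (limma adjusted p = 0.233). Robo1 was low, at 30.1 to 106 in wild-type and 89.7 to 174 in PROSER1 KO libraries, and the groups overlapped. Its log2 fold change of 1.33 (interval 0.40 to 2.25, limma adjusted p = 0.325) was larger than that of Robo3. The SLIT ligand genes Slit1 and Slit2 stayed at 18.9 to 45.2 over all libraries. In the list of 23 ligands and partners of the markers, 18 were tested and 0 called, with 13 log2 fold changes above 0, 5 below and a median of 0.12. F2r, the thrombin receptor through which EPCR signals, lay at 2668 to 3560 in wild-type and 3681 to 4370 in PROSER1 KO libraries, without overlap (log2 fold change 0.32, limma adjusted p = 0.318). It was chosen after its values were seen, as were Robo1, Ly6d, Ly6k, Ly6c1, Ly6c2, Ifit3, Ifi44 and Slamf7.

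**Figure D5:**
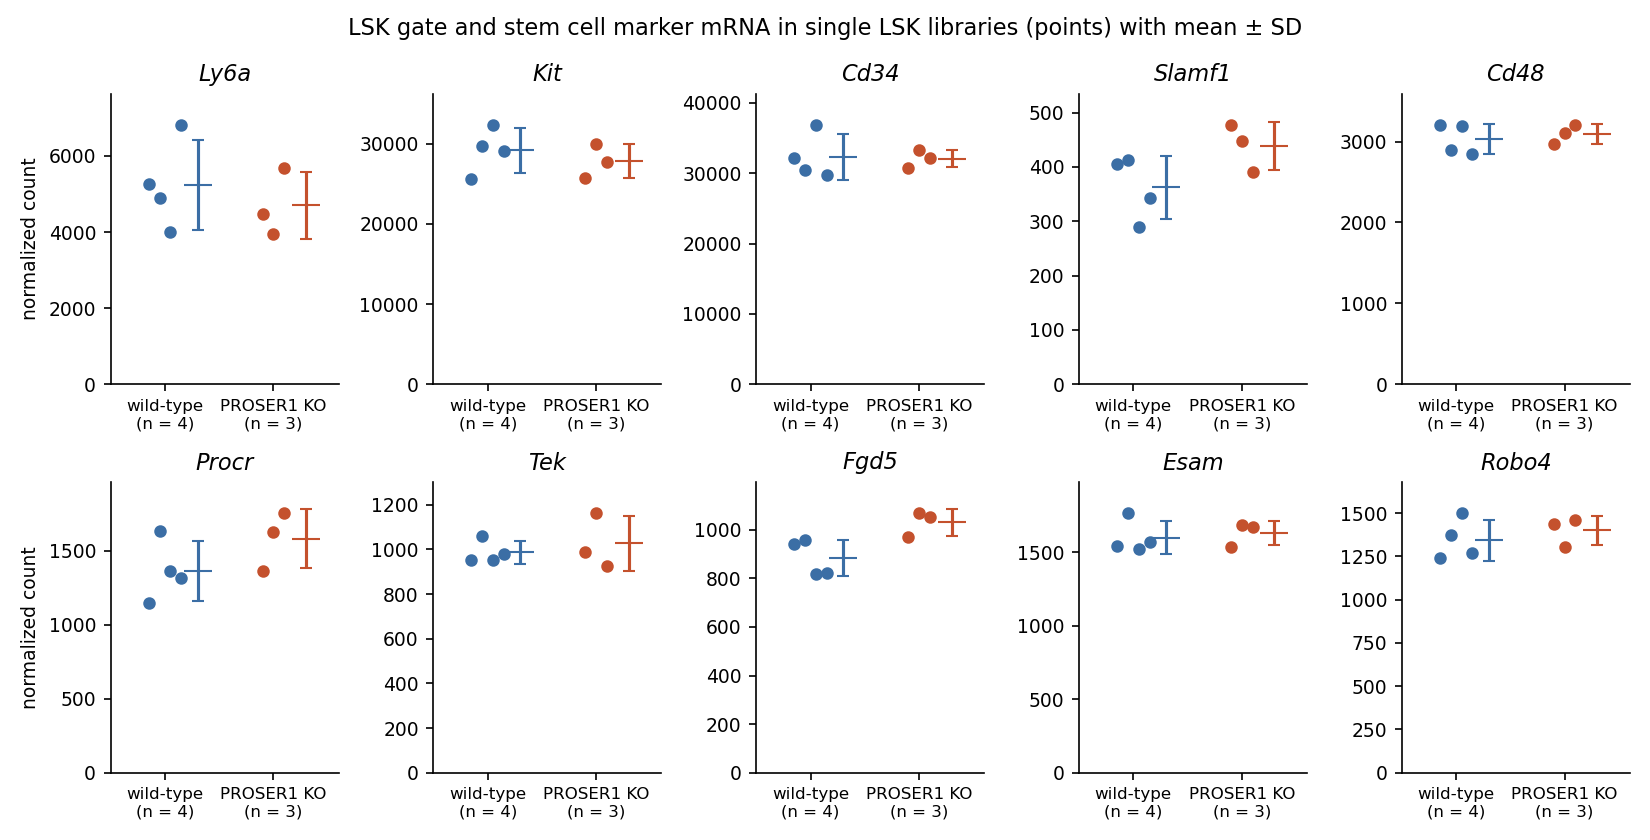
Normalized counts of the 10 marker genes in each library, as points for 4 wild-type and 3 PROSER1 KO libraries with the mean ± SD beside them, on linear axes that start at 0. Only for Fgd5 do the groups not overlap, with 817 to 957 against 968 to 1068, and Ly6a shows the widest spread, from 3961 to 6822.

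Other markers of the same compartment gave 0 calls by limma as well. Of 21 other HSC surface proteins, 16 log2 fold changes were above 0 and 5 below, with a median of 0.08. Cd82, a tetraspanin, had the lowest p, at 2409 to 2933 normalized counts in wild-type and 2127 to 2215 in PROSER1 KO libraries (log2 fold change -0.26, adjusted p = 0.229 by limma and 0.0352 by DESeq2, under the fold minimum). Of 15 HSC transcripts, 8 were above 0 and 7 below, with a median of 0.03. Mecom, a transcription factor that HSCs need, had the lowest p of these. It lay at 2683 to 3030 in wild-type and 2160 to 2610 in PROSER1 KO libraries (log2 fold change -0.25, adjusted p = 0.282 by limma and 0.0684 by DESeq2). In each list the groups did not overlap for 2 genes with PROSER1 KO higher and for 2 with it lower. Cd82 and Mecom were among the latter. Over all genes, 10% did not overlap.

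Lists for progenitors further along gave the same count of 0 by limma. Of 11 lymphoid-primed genes, 5 log2 fold changes were above 0 and 6 below, with a median of -0.01, and Cd52, a surface glycoprotein of lymphocytes, had the lowest p (log2 fold change -0.44, adjusted p = 0.288 by limma and 0.00875 by DESeq2). Of 13 committed myeloid and erythroid genes, 9 were above 0 and 4 below, with a median of 0.07, and Ctsg, a granule protease, had the lowest p (log2 fold change -0.44, adjusted p = 0.303 by limma and 0.026 by DESeq2). Both stayed under the fold minimum.

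Transcripts of cells that the gate should remove, or that share its markers, were read in the same way. Common targets of lineage antibodies were listed from general knowledge and not from the antibodies used in this sort. They summed to 1384 to 2602 normalized counts in wild-type and 1329 to 2889 in PROSER1 KO libraries. Of 10 tested genes 0 were called, with a median log2 fold change of 0.36 and the lowest p for Cd4 (-0.61, limma adjusted p = 0.374). The T cell receptor component gene Cd3e was at 197 in PROSER1 KO replicate 1 and at 5.75 to 24.0 in the other libraries. Endothelial cells share Tek, Esam, Robo4 and Procr with HSCs. Their genes summed to 11780 to 14360 in wild-type and 13730 to 15370 in PROSER1 KO libraries. The most abundant were Pecam1, Egfl7 and Vwf, with wild-type means of 5158, 3187 and 2211 and PROSER1 KO means of 5036, 3421 and 3357. Vwf was also on the list of HSC transcripts, so the sum is not that of endothelial RNA alone. Of 13 tested endothelial genes, 0 were called, 11 had a log2 fold change above 0 and the median was 0.56. Emcn, a sialomucin of endothelium and HSCs, had the lowest p among them (0.36, adjusted p = 0.233 by limma and 0.0346 by DESeq2, under the fold minimum), and its groups were apart, at 688 to 806 normalized counts in wild-type and 859 to 1077 in PROSER1 KO libraries. The endothelial gene Cdh5, which defines that lineage, was low at 33.4 to 258, and the groups overlapped. The part of these cells in the values of Procr, Fgd5, Tek, Esam and Robo4 was not tested.

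Stromal genes summed to 2221 to 3313 in wild-type and 3056 to 3462 in PROSER1 KO libraries, with 0 of 6 tested genes called and a median of 0.48. Most of that sum was 1 gene, the growth factor receptor gene Pdgfrb, at 1855 to 2890 in wild-type and 2759 to 2901 in PROSER1 KO libraries, while Cxcl12 ranged from 3.61 to 357, Col1a2 from 102 to 196, and the other stromal genes stayed below 60 normalized counts. Pdgfrb also had the lowest p (0.37, limma adjusted p = 0.380), and without wild-type replicate 3, its highest wild-type library, its log2 fold change was 0.51 (limma adjusted p = 0.0183). For mast cells, which carry cKit, and basophils, 0 of 8 tested genes were called, 2 log2 fold changes were above 0 and 6 below, and the median was -0.31. Their lowest p was that of Mcpt8, a basophil protease, with 163 to 242 normalized counts in wild-type and 80.7 to 158 in PROSER1 KO libraries, and its log2 fold change of -0.83 did not pass with limma (adjusted p = 0.280) but did with DESeq2 (adjusted p = 0.0414). Interferon-stimulated genes had 0 of 12 called, 11 log2 fold changes above 0, a median of 0.09 and the lowest p for Bst2 (0.12, limma adjusted p = 0.533). These lists share some genes with one another.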

How the data were processed

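RNA was sequenced from sorted LSK cells of 4 wild-type and 3 PROSER1 KO BM chimera samples. The authors used Trimmomatic to trim the read pairs, STAR to align them (genome mm10) and featureCounts to assign them to genes. The deposited signal is the resulting count divided by the DESeq2 size factor of its library. The gene model release is named differently in the methods and in the file header. Dividing each library by its smallest step gave whole reads for 100% of values within 0.01. Genes without a symbol numbered 685 and held at most 0.135% of read pairs.

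Groups were compared with limma 3.58.1 (R 4.3.3) on log2(normalized count + 1) with a variance trend, as given in the report, and edgeR 4.0.16 and DESeq2 1.42.0 were run on the recovered read pairs. The fit was tested on simulated data. Positions come from GENCODE annotation of GRCm38. Named genes were the markers, Proser1, the gene with the lowest p of each list (every called gene, had there been any), the 3 genes nearest in pattern to the marker with the widest range, and genes overlapping a marker. Besides Gm16897, these were Gm37010 (14.4 to 41.3 normalized counts), Gm44095 (0 to 5.76) and 4930466I24Rik (0 in every library), none sharing exon bases with its marker. The markers and lists were chosen with earlier results of these data known. Replicates were compared by chi-square, which was 27.8 to 88.0 per degree of freedom, so no library was a copy of another. The alternatives were other pseudocounts, filters, variance estimates and scalings, both count models, a replicate block and each library left out. Intervals cover the spread between libraries and the floor of 3 read pairs covers counting error only.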

Additional observations from a re-analysis of the deposited data

Results flagged for a closer look

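In groups of 4 libraries, a value was singled out when the gap between an extreme library and its nearest neighbour, divided by the range of the group, exceeded Dixon's 95% critical value. Of 44 values examined, 3 did so, all of them in the wild-type group and none of them a marker gene, and chance gives about 1 in 20. Cd84 had a ratio of 0.845, with wild-type replicate 4 at 3705 normalized counts above 3341 to 3397 in the other wild-type libraries. The summed stromal genes had a ratio of 0.912, with wild-type replicate 3 at 3313 above 2221 to 2317, and most of that sum was Pdgfrb, at 2890 in this library and 1855 to 2114 in the other wild-type libraries. The summed interferon-stimulated genes had a ratio of 0.836, with wild-type replicate 4 at 17470 below 18440 to 18630. PROSER1 KO libraries, being 3, could not be examined in this way.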

How the results depend on the processing

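No marker gene was called in any of 19 alternatives, and the lowest adjusted p of a marker was 0.362 (Fgd5, DESeq2). Of 190 pairs of a marker and an alternative, 184 kept their direction and 6 reversed it. Cd34 became 0.018 with quantile normalization, 0.060 without wild-type replicate 3 and 0.024 without PROSER1 KO replicate 1 (range with single libraries left out -0.045 to 0.060), Cd48 ranged from -0.00044 (without wild-type replicate 4) to 0.059, and Tek from -0.040 (without PROSER1 KO replicate 2) to 0.12. Without wild-type replicate 4, A530040E14Rik, Edem1 and Creb3l2 turned to 0.039, 0.0265 and 0.0345 (their lowest values with single libraries left out were -0.25, -0.31 and -0.23). The count of all genes called was 42, against 17 without a variance trend, 80 with robust variance estimates and 165 with DESeq2, and 23 (without PROSER1 KO replicate 2) to 42 with single libraries left out; the cause was not tested. Without wild-type replicate 3, Pdgfrb had an adjusted p of 0.0183 but a fold under the minimum.

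Replicate numbers were not treated as pairs in the main fit. Deviations of equally numbered libraries correlated at 0.023, 0.058 and -0.11, and those of unequally numbered libraries at -0.131 to 0.142. Such values cannot show whether the samples were handled in pairs. A replicate block, in which wild-type replicate 4 has no partner and drops out of the comparison, gave 35 calls over all genes and 0 of 10 markers, with log2 fold changes of -0.00044 for Cd48, 0.039 for A530040E14Rik, 0.0265 for Edem1 and 0.0345 for Creb3l2. The ratios to Cd48 were recomputed only with other pseudocounts and with single libraries left out (9 alternatives each), and kept their sign in these, at 0.13 to 0.36 for Slamf1 and 0.08 to 0.30 for Procr. With 3 and 4 libraries, differences in the markers smaller than their intervals were not detectable, and the effect of depth was not tested.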
